A study of Mus musculus with 32 samples.

Results

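Peaks of HA-tagged Ikaros, of CHD4 and of the histone mark H3K27ac were described across the mouse immunoglobulin loci, which hold the constant genes Ighm and Ighd (heavy chain, Igh), Igkc (kappa light chain, Igk) and Iglc1, Iglc2 and Iglc3 (lambda light chains, Igl). A peak was taken where it overlapped one of 3 windows of the mm10 genome by at least 1 bp: chr12:113200000-116020000 for Igh, chr6:67500000-70750000 for Igk and chr16:19000000-19300000 for Igl. These windows held 2599 of the 338060 peaks in 24 libraries, namely 229 of 87628 Ikaros peaks, 350 of 41527 CHD4 peaks and 2020 of 208905 H3K27ac peaks. The annotation placed 427 immunoglobulin segments and constant genes inside them.

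All libraries came from B3, a mouse pre-B cell line of lymphoma origin that was transduced with Ikaros-ERt2, a fusion that enters the nucleus when 4-hydroxytamoxifen (4-OHT) is added. The 0 h groups received no 4-OHT, and the others received 500 nM for 30 min, 1 h or 2 h, so every group carries the fusion and no group lacks it. Each of the 3 targets had 2 libraries at each of the 4 times, and 8 input libraries without peak lists were not analysed here. The labels do not say whether replicates were separate cultures, so p-values measure the spread between these libraries, which may be technical.

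Each heavy or light chain gene is assembled in developing B cells by joining one variable (V) to one joining (J) segment, with a diversity (D) segment between them in the heavy chain, and the recombinase removes or inverts the DNA between the joined segments. The heavy chain is assembled first and reaches the surface of the pre-B cell as the mu chain of Ighm, paired with the surrogate light chain, and the kappa and lambda loci follow. Known enhancers lie in the intron between J and the constant gene of Igh and of Igk, on the 3′ side of Igha and of Igkc, and downstream of Iglc4 in Igl. Ikaros (IKZF1) is a zinc finger protein needed for this stage, CHD4 is the helicase of the NuRD corepressor complex, and H3K27ac marks active promoters and enhancers.

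The length of the peak lists varied and touches every count below. Lists held 5373 to 14874 Ikaros, 2488 to 9593 CHD4 and 21468 to 33664 H3K27ac peaks, and the first replicate had the longer H3K27ac list at every time. The coverage recovered from fold and p was 1.98 to 3.59 fragments per base for Ikaros and 3.75 to 4.34 for H3K27ac, and that of CHD4 is not known. H3K27ac lay within 1 kb of a start site in both 0 h libraries for 10 of 11 B-cell precursor genes (all but Rag1), 2 of 6 T-cell genes (Cd3d and Lck), 0 of 5 myeloid genes, 2 of 3 erythroid genes (Klf1 and Hbb-bt) and 1 of 3 plasma cell genes (Xbp1). Variable segments come in families of near-identical sequence, as do Iglc2 and Iglc3, and no filter on mapping quality is stated, so reads there can be split between copies or drawn to one of them.

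The Ikaros sequences below are the 101 bases of mm10, plus strand, around the strongest summit of the region that was called in most libraries in its part of each locus, and of 1 Igk region seen after but not before 4-OHT. Capitals mark GGGAA or its complement TTCCC, the core of the known Ikaros motif. The Igh 3′ and J-C intron sequences were chosen by position, and the other 4 after their values were seen.
Igh 3′ part, chr12:113222525-113222625: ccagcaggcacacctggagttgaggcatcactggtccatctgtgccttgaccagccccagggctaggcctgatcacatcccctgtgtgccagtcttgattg
Igh J-C intron, chr12:113427537-113427637: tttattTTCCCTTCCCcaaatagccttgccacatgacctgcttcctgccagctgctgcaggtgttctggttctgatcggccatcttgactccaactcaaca
Igh constant region, chr12:113321294-113321394: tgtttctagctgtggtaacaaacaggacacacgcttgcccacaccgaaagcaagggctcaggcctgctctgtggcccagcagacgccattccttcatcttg
Igk near Igkv14-111, chr6:68250963-68251063: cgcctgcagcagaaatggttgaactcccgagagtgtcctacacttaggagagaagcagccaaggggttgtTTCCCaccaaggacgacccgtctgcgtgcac
Igk near Gm42543, chr6:68884222-68884322: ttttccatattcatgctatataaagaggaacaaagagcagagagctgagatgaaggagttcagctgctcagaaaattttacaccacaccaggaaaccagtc
Igl, chr16:19180153-19180253: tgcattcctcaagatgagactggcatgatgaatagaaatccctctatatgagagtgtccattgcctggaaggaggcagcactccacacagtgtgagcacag
The intronic sequence held 2 copies, that near Igkv14-111 held 1 and the others 0. Over all 98 merged Ikaros regions of the 3 loci, 22 (22.4%) held the word within 50 bp of the strongest summit, beside 9415 of 23856 Ikaros regions genome-wide (39.5%).

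H3K27ac peaks in the 3 loci numbered 222 and 177 at 0 h, 282 and 207 at 30 min, 252 and 229 at 1 h, and 397 and 254 at 2 h (replicates 1 and 2). The second 2 h library held no more than the first 30 min library, and the number missed the threshold of 0.05 in a test over time. All such tests are exact two-sided permutation tests over 8 libraries, on Spearman's rho with Pearson's r beside it, adjusted over 9 trends (here rho = 0.73, exact p = 0.0548, 0.0986 after adjustment, with r = 0.71, exact p = 0.0373, 0.056 after adjustment, and r = 0.51 without the 2 h libraries). The number also missed at a −log10 q of 3 or more (rho = 0.59, exact p = 0.153, 0.197 after adjustment) and at a fold of 3 or more (rho = 0.63, exact p = 0.11, 0.165 after adjustment). It passed with every list cut to the length of the shortest (rho = 0.88, exact p = 0.0103, 0.0381 after adjustment). As a percentage of each list, in a comparison added after the data were seen, it also passed (rho = 0.93, exact p = 0.00317, 0.0143 after adjustment, with r = 0.86, exact p = 0.00119, and r = 0.77 without the 2 h libraries). Ikaros peaks numbered 12 and 20 at 0 h, 20 and 21 at 30 min, 28 and 48 at 1 h, and 41 and 39 at 2 h. Both 1 h and both 2 h libraries exceeded all 0 h and 30 min libraries, and the second 1 h library was the highest, yet the adjusted p was above the threshold (rho = 0.86, exact p = 0.0127, 0.0571 after adjustment, with r = 0.80, exact p = 0.021, 0.0536 after adjustment, and r = 0.79 without the 2 h libraries). With lists of equal length the relation was close to none (rho = 0.10, exact p = 0.825, also 0.825 after adjustment). As a percentage of each list, also added later, Ikaros peaks in the loci gave rho = 0.59 (exact p = 0.153, 0.197 after adjustment, with r = 0.38, exact p = 0.356, and r = 0.47 without the 2 h libraries). CHD4 peaks numbered 15 and 39 at 0 h, 32 and 22 at 30 min, 35 and 40 at 1 h, and 98 and 69 at 2 h. Only the 2 h libraries stood above the others, with rho = 0.78 (exact p = 0.0349, 0.0986 after adjustment) and r = 0.87 (exact p = 0.00635, 0.0286 after adjustment), which was 0.47 without the 2 h libraries. So the rank test missed the threshold where r passed it. The direction of CHD4 turned with lists of equal length (rho = −0.25, exact p = 0.565, 0.636 after adjustment), and as a percentage of the list, added later, rho was 0.63 (exact p = 0.11, 0.165 after adjustment, with r = 0.63, exact p = 0.044, and r = 0.51 without the 2 h libraries).

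**Figure D1:**
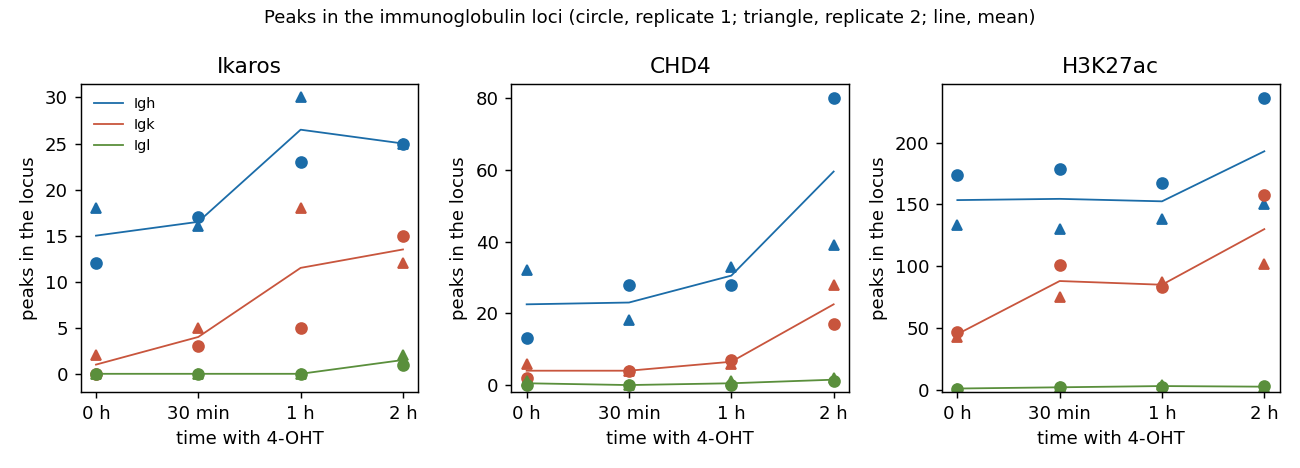
Number of Ikaros, CHD4 and H3K27ac peaks (vertical axis) in Igh, Igk and Igl at each time with 4-OHT, with 1 point per library and lines through the means of 2 libraries. Igk H3K27ac peaks lie at 43 and 47 at 0 h and at 75 or more in every later library, while Igh H3K27ac peaks overlap between times.

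More of the kappa variable part was marked after 4-OHT than before it. Igk held 47 and 43 H3K27ac peaks at 0 h, 101 and 75 at 30 min, 83 and 87 at 1 h, and 158 and 102 at 2 h. Every later library lay above both 0 h libraries, and the 30 min and 1 h libraries overlapped each other. These peaks covered 51.2 and 52.9 kb at 0 h, 90.6 to 111 kb at 30 min and 1 h, and 187 and 128 kb at 2 h. A percentage of the list scales by its length but does not remove the effect of length, since longer lists hold more weak peaks. Igk peaks made up 0.187% and 0.2% of the list at 0 h, 0.343% and 0.323% at 30 min, 0.305% and 0.367% at 1 h, and 0.469% and 0.406% at 2 h. This share rose with time (rho = 0.88, exact p = 0.0103, 0.0381 after adjustment, with r = 0.90, exact p = 0.00437, and r = 0.84 without the 2 h libraries), in a comparison chosen after the data were seen. The call was lost in 5 of the 8 fits that each left out 1 library (exact adjusted p from 0.0143 to 0.0857) and with the replicate block (exact adjusted p = 0.0625). No trend of Igk alone, for any target, was run with lists of equal length. Of the H3K27ac peaks of the 3 loci, Igk held 21.2% and 24.3% at 0 h, 32.9% to 38% at 30 min and 1 h, and 39.8% and 40.2% at 2 h. This share, a test of Igk against the other loci that was also added later, rose too (rho = 0.88, exact p = 0.0103, 0.0381 after adjustment, with r = 0.81, exact p = 0.021, and r = 0.82 without the 2 h libraries). The number of Igh H3K27ac peaks did not pass (rho = 0.29, exact p = 0.513, 0.578 after adjustment, with r = 0.46, exact p = 0.257, and r = −0.02 without the 2 h libraries).

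**Figure D2:**
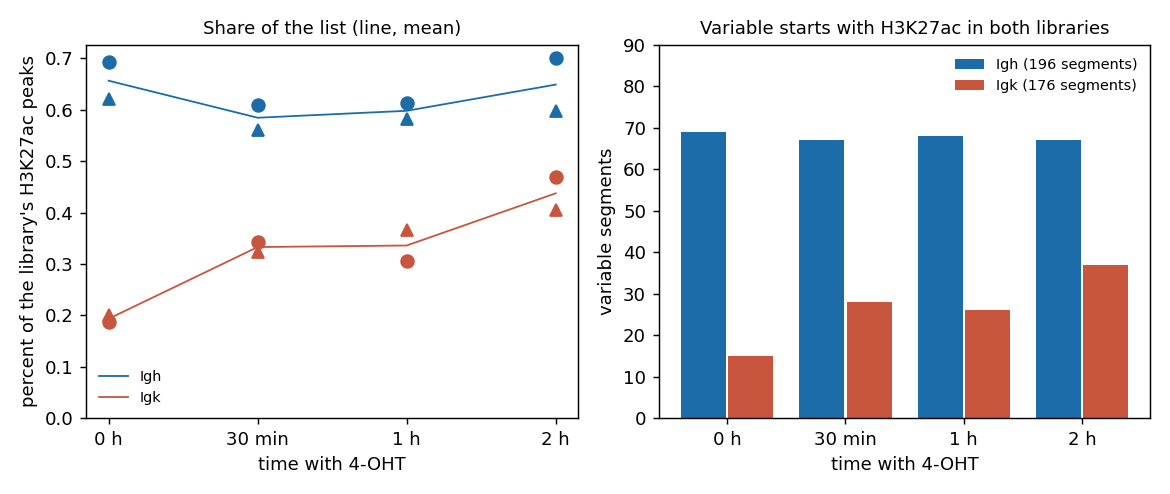
Left, percentage of each library's H3K27ac peaks that lie in Igh or Igk, with 1 point per library (circle, replicate 1; triangle, replicate 2). Right, number of variable segments with an H3K27ac peak within 1 kb of their start in both libraries of a time. Igk goes from 15 at 0 h to 37 at 2 h and Igh from 69 to 67, counts that do not allow for the length of the lists.

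Merged over the 8 lists, Igk held 175 H3K27ac regions, of which 31 were gained, meaning called in both 2 h libraries and neither 0 h library, and 0 were lost by the reverse rule. Over all 39309 H3K27ac regions, 3.73% were gained and 2.78% lost. Igk stood at 17.7% and Igh at 5.78% gained (16 of 277 regions, with 5 lost). With every list cut to the length of the shortest, 12 of 104 Igk regions were gained (11.5%) and 0 lost, beside 2.39% and 5.26% of all regions. Over the 3 loci, the gained count of H3K27ac depended on single libraries, as given in the closing section. Of the 31 gained regions, 29 lay between 68.5 and 69.5 Mb of chromosome 6, where 142 of the 175 regions lay, an interval set after the positions were seen. In 20 the nearest segment was of the Igkv4 family, as in 74 of the 175. Of the 52 segments with an Igkv name in this stretch, 24 were of the Igkv4 family. Distances to a segment are from a region's median summit, or its centre for CHD4. The gained regions had a median highest fold over input of 4.36 and a maximum of 7.24, beside 3.87 and 26.1 over all 175 kappa regions.

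By the highest mean rank, 4 of the 5 gained H3K27ac regions to be named were in Igk. The first (chr6:69259562-69261770, 6651 bp from Igkv4-70) was uncalled at 0 h and had folds of 4.3 and 3.65 at 30 min, 7.24 and 5.23 at 1 h, and 6.33 and 6.72 at 2 h. The second covered Igkv4-80 (chr6:69015828-69017562), with folds of 2.71 and 4.87 at 30 min, 6.37 and 5.71 at 1 h, and 6.92 and 4.83 at 2 h. The region near Igkv13-78-1 (chr6:69051220-69053959) ranged from 3.77 to 5.49 and that near Igkv4-81 (chr6:68990253-68991948) from 3.46 to 6.02 in the same 6 libraries. The choice by mean rank favours regions called in every library with 4-OHT, as all 4 were, and 6 of the 31 gained kappa regions were so called. The last of the 5 lay in Igl and is described there.

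Kappa regions marked at every time kept their fold, on the median, at or above the 0 h values of the same replicate. The median fold of the 27 Igk regions called in all 8 libraries was 7.14 and 5.68 at 0 h, 8 and 6.42 at 30 min, 8.82 and 7.08 at 1 h, and 8.07 and 7.67 at 2 h. Over all 14716 H3K27ac regions called in all 8 libraries (37.4% of regions), the median went from 12.6 and 10.5 at 0 h to 8.5 and 8.24 at 2 h, and over the 74 such Igh regions from 8.98 and 8.15 to 5.96 and 6.18. These medians are a description without a test.

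**Figure D3:**
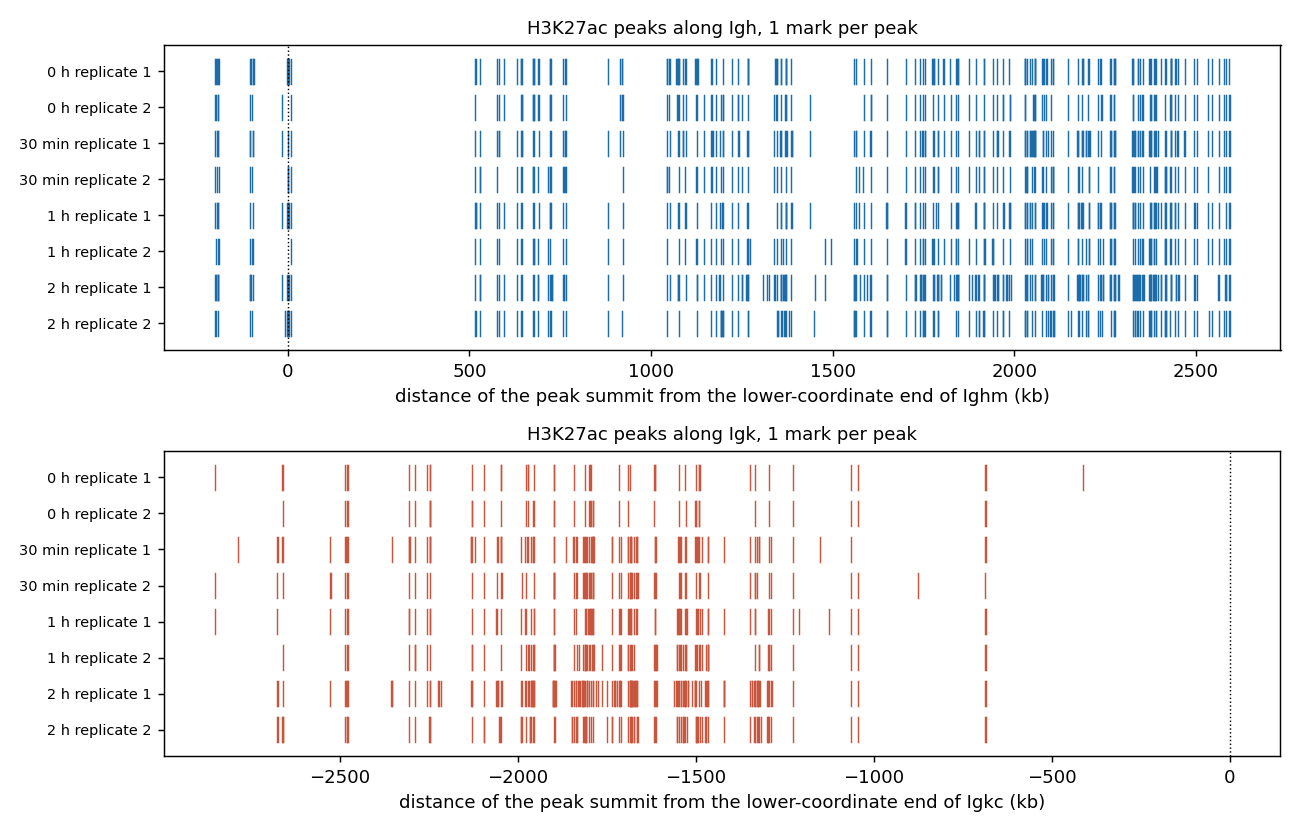
H3K27ac peaks of the 8 libraries (rows) along Igh and Igk, each mark 1 peak summit at its distance in kb from the lower-coordinate end of Ighm or Igkc (dotted line). No mark lies in the roughly 502 kb above the Igh J segments or in the part of the 476 kb stretch around Igkc that the window holds, and marks fill in at the middle of Igk after 0 h.

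Of the 27 kappa regions called in all 8 H3K27ac libraries, the one of highest mean rank, chr6:68879785-68890212, with its summit 3540 bp from the variable gene Gm42543, had H3K27ac folds of 17.3 and 19.7 at 0 h, 22.9 and 17.4 at 30 min, 26.1 and 16.5 at 1 h, and 12.1 and 21.4 at 2 h. Times overlapped. Ikaros was called inside it in 7 libraries (all but the first at 0 h), with folds of 4.46 to 10.3, and CHD4 in all 8, with folds of 3.17 to 4.79. Ikaros at chr6:68250546-68252609, 5336 bp from Igkv14-111, was uncalled at 0 h and had folds of 6.12 and 5.14 at 30 min, 4.23 and 9.85 at 1 h, and 6.97 and 6.09 at 2 h. It was the highest ranked of 12 gained Ikaros regions in the 3 loci, of which 6 were in Igk. A neighbouring gained Ikaros region (chr6:68242343-68243231) was called in 5 libraries with folds of 3.39 to 6.5, and that over Igkv4-72 (chr6:69226254-69227448) in 3 with folds of 3.98 to 6.09. Across all Ikaros regions 12% were gained, so the 12 of 98 in the loci (12.2%) lie at the background, with 6 of 27 in Igk (22.2%) and 5 of 69 in Igh (7.25%), and 2 of 98 were lost beside 3.59%. The gained count rests on the settings: it was 5 at a −log10 q of 3 or more (beside 11.2% of all Ikaros regions), 2 with lists of equal length (beside 7.63%), and 27 or 32 without the first or second 2 h library.

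CHD4 in Igk made up 0.0804% and 0.1% of its list at 0 h, 0.098% and 0.119% at 30 min, 0.129% and 0.119% at 1 h, and 0.308% and 0.292% at 2 h. The 2 h libraries were apart from all others, and the share rose with time (rho = 0.93, exact p = 0.00317, 0.0143 after adjustment, with r = 0.93, exact p = 0.00119, and r = 0.85 without the 2 h libraries), again in a comparison chosen after the data were seen. As a share of the CHD4 peaks of the 3 loci, Igk did not pass (rho = 0.59, exact p = 0.153, 0.197 after adjustment, with r = 0.66, exact p = 0.0405, and r = 0.49 without the 2 h libraries), with 17.3% in the first and 40.6% in the second 2 h library beside 12.5% to 20% earlier. The Igk share of the Ikaros list did not pass either (rho = 0.73, exact p = 0.0548, 0.0986 after adjustment, with r = 0.69, exact p = 0.0667, and r = 0.68 without the 2 h libraries). The CHD4 share of the list rests on 2 to 28 peaks per library, 33 of the 44 Igk CHD4 regions were called in 1 library, and 4 were gained and 0 lost. Named gained CHD4 regions in Igk lay near Igkv4-92 (chr6:68749946-68751545), over Igkv4-80 (chr6:69016470-69017124) and near Igkv4-58 (chr6:69499783-69500969), with folds of 2.97 to 3.66 at 2 h. In the 3 loci 13 of 173 CHD4 regions were gained (7.51%) beside 5.3% of all CHD4 regions, and 4 were lost (2.31%) beside 1.45%, and with a −log10 q of 3 or more both counts were 0. The gained count of CHD4 also depended on single libraries, as given in the closing section.

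An H3K27ac peak lay within 1 kb of the start of 69 of 196 Igh variable segments in both 0 h libraries, and of 67, 68 and 67 at 30 min, 1 h and 2 h. In Igk the same count over 176 segments was 15, 28, 26 and 37. Ikaros reached 8, 5, 12 and 7 Igh and 0, 0, 0 and 3 Igk segments in both libraries of a time, and CHD4 reached 8, 7, 7 and 16 Igh and 0, 0, 0 and 3 Igk segments. The share of start sites genome-wide with such a peak was not taken, so the part of list length in these counts was not tested. The highest ranked Igh variable segments for H3K27ac were Ighv1-58 (folds 15.2 to 30.2), Ighv1-12 (8.95 to 30.1), Ighv8-6 (10.4 to 22.6), Ighv1-15 (11.5 to 21.9) and Ighv8-4 (9.36 to 23.8), each called in all 8 libraries. In Igk they were Igkv13-74-1 (13.9 to 22.9), Igkv13-80-1 (12.3 to 19.1), Igkv4-58 (6.34 to 18.5), Igkv13-71-1 (9.27 to 17.7) and Igkv4-72 (7.59 to 14.6), also in all 8.

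The octamer ATGCAAAT, or its complement ATTTGCAT, is the known promoter element of variable segments, and it is shown in capitals in the promoters, 250 bases before to 50 after the start on the coding strand, of the top Igh segment and of the gained kappa segment Igkv4-80. Igkv4-80 was chosen because it gained the mark, and 3 of the 5 highest ranked kappa segments (Igkv13-74-1, Igkv13-80-1 and Igkv13-71-1) held no octamer in this stretch.
Ighv1-58, chr12:115312550-115312849, minus strand: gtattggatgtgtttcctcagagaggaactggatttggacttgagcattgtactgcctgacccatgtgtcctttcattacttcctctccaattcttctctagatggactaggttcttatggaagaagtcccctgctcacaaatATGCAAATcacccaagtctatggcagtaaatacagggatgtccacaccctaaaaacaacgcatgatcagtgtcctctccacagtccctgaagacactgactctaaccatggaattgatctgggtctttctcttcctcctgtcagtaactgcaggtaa
Igkv4-80, chr6:69017031-69017330, minus strand: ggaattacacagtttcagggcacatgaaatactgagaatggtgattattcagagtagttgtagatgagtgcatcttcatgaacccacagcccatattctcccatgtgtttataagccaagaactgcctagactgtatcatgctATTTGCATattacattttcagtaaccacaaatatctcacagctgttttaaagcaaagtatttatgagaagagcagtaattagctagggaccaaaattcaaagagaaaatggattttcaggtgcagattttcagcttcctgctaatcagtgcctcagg
The octamer was found in 8 of the 8 kappa variable genes (pseudogenes left out) marked in both 0 h libraries, in 16 of the 16 marked in both 2 h but not both 0 h libraries, and in 47 of 74 marked in no library. With pseudogenes kept, the 3 counts were 10 of 15, 17 of 22 and 65 of 128. In Igh it was in 45 of 51 variable genes marked at 0 h and in 40 of 54 marked in no library. Of 32851 RefSeq promoters of the same length (GRCm38.p6), 1.74% held it. Segments of a family can share a promoter sequence, so the segment counts are not of independent promoters, and no split by family was made.

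Ikaros in the Igh variable segments of highest mean rank was called in 6 or 7 libraries at Ighv9-3 (folds 2.73 to 8 where called), Ighv1-80 (3.99 to 5.57), Ighv1-70 (3.36 to 7.63) and Ighv8-4 (2.91 to 7.36), and in 3 at Ighv9-2 (6.25 to 7.42). A region of lower mean rank over Ighv8-12 (chr12:115647365-115648578) was called in 7 libraries, with folds of 2.78 to 4.7. The region called in all 8 libraries lay 59 bp from Ighv1-75 (chr12:115833484-115834065), with folds of 2.5 to 6.18. CHD4 was called in all 8 libraries at 2 Igh variable regions, of which that of higher mean rank lay over Ighv1-70 (chr12:115691673-115692788), with folds of 2.9 to 3.96. Of the other named segments, chosen by mean rank, it was called in 4 to 6 libraries at Ighv9-3, Ighv1-12, Ighv8-13 and Ighv8-4. Lost Ikaros regions were those over Ighv8-13 (chr12:115764964-115765625, folds 3.48 and 5.15 at 0 h) and Ighv8-6 (chr12:115165148-115166329, folds 3.35 and 4.19 at 0 h), and each was also called in 2 libraries at 30 min or 1 h. Lost CHD4 regions lay at or near Ighv8-10, Ighv1-84, Ighv1-85 and Ighv8-9, all with folds under 4. The 5 lost H3K27ac regions lay in Igh, the strongest 7350 bp from Ighv1-5 (chr12:114505692-114506684), with folds of 6.78 and 5.63 at 0 h, 3.24 in the first 30 min library and no call afterwards. Gained regions of Ikaros (chr12:115743290-115744715) and CHD4 (chr12:115742832-115746355) shared a place 1451 and 1948 bp from Ighv1-71, where Ikaros reached 3.21 and 8.32 and CHD4 3.1 and 4.3 at 2 h, and a second gained CHD4 region (chr12:116010668-116011777) lay 1302 bp from Ighv1-86. The local background under Igh variable peaks was 1.26 to 1.86 times the mean of the library for H3K27ac, against 1 to 1.26 under Igk variable peaks, and 1.21 to 1.76 times for Ikaros, against 1 to 1.34 in Igk, and its part in these counts was not tested.

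The J-C intron held the strongest H3K27ac of the 3 loci in 6 of 8 libraries. In the first 0 h library the Igh variable part reached 30.2, and in the second 1 h library the Igk and Igh variable parts reached 21.1 and 19.3, above the intron in each case. A domain ending at Ighj1 (merged over the 8 lists, chr12:113419945-113429806) reached into Ighm in 7 of 8 libraries. In the second 0 h library it began at 113422884, beyond Ighm. Its folds were 28.5 and 32.9 at 0 h, 51.7 and 47.8 at 30 min, 62.7 and 13.6 at 1 h, and 36.4 and 41.4 at 2 h. All libraries but the second at 1 h exceeded 28, and that library was the lowest. The percentile rank of this peak within its list, where 100 is the highest fold, was 94.8 and 98.8 at 0 h, 99.8 and 100 at 30 min, 100 and 87.8 at 1 h, and 99.8 and 99.9 at 2 h, and missed the threshold (rho = 0.34, exact p = 0.422, 0.475 after adjustment, with r = 0.16, exact p = 0.716, 0.743 after adjustment, and r = −0.27 without the 2 h libraries). Ikaros was called in the intron in 1 library only (second at 1 h, chr12:113427448-113427859, fold 3.33, rank 10.6) and CHD4 in 1 (first at 2 h, chr12:113426461-113428667, fold 3.53, rank 89.5), too few for a test.

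Ighm itself (chr12:113418558-113422730, minus strand) held an H3K27ac summit in 6 of 8 libraries, with folds of 3.16 to 4.75. These were peaks apart from the larger domain peak of the same library, though some lay within the merged span of the domain. Ighd (chr12:113406604-113416324), the constant gene that follows Ighm, was overlapped by a peak in 4 libraries and held a summit in 2 of them, with folds of 2.87 and 3.67. No Ikaros peak overlapped either gene, the nearest lying 4718 bp from Ighm and 11124 bp from Ighd, and CHD4 overlapped Ighm in 1 library (first at 2 h, fold 3).

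**Figure D4:**
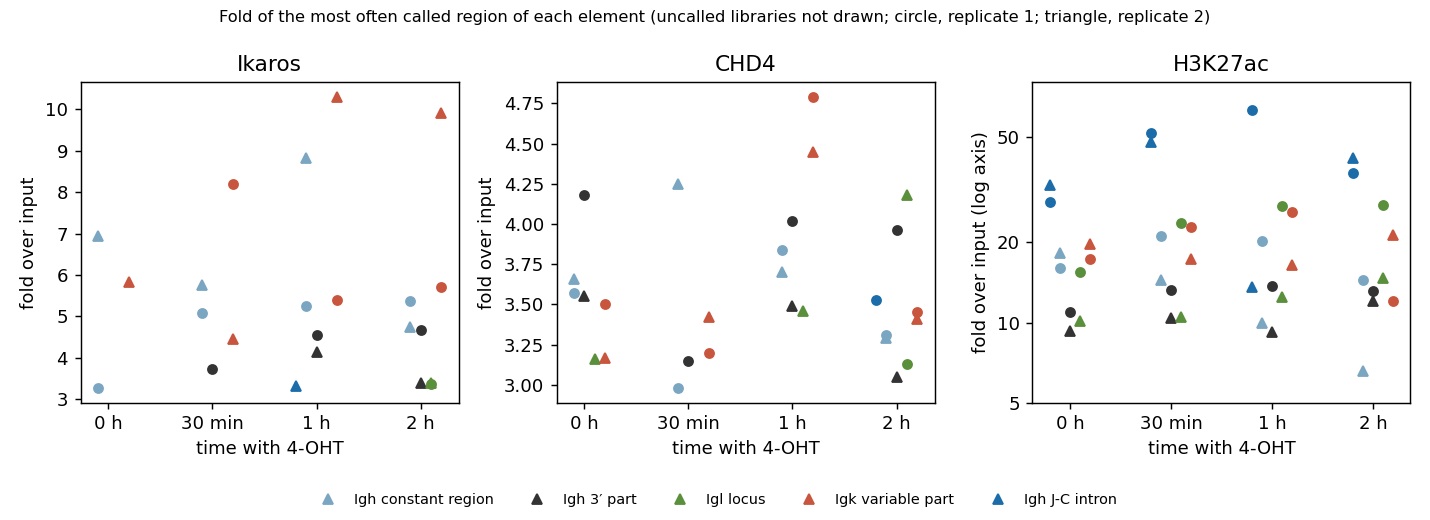
Fold over input of the most often called region (ties by mean rank) in each of 5 parts of the loci, by time and library, for Ikaros and CHD4 (linear axes that do not start at 0) and H3K27ac (log axis). H3K27ac in the Igh J-C intron is above 28 in 7 of 8 libraries and 13.6 in the other, while Ikaros appears there in 1 library and in the Igh 3′ part from 30 min on.

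The upper edge of this domain and the next peak beyond it were sharply placed. The domain ended between 113429752 and 113429806 in all 8 H3K27ac libraries, at Ighj1 (chr12:113429781-113429833), the J segment farthest from Ighm. From there to 113931964, a stretch of 502 kb with 65 immunoglobulin segments, no peak of any target was called in any of the 24 libraries. The next H3K27ac peak began at 113931965 to 113931967 in all 8 libraries, just inside the 3′ end of Ighv14-1 (chr12:113931953-113932382), a range of 2 bp. Such a range or a smaller one was found at 4 of the 29432 edges of H3K27ac regions called in all 8 libraries (0.0136%), where the median range was 603 bp. The edge at Ighj1 varied by 54 bp, which 0.897% of edges matched or undercut. Both edges were picked after the positions were seen, and the start of a region near Ighv1-59 varied by a similar 55 bp. The sequence at the edge in Ighv14-1 is shown on the coding strand with the 3 edge bases in capitals, since the peak begins inside the segment.
Ighv14-1, chr12:113931905-113932027, minus strand: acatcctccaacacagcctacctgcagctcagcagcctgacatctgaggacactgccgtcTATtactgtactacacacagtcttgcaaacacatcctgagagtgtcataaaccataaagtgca
Of 43249 stretches between neighbouring peaks genome-wide, 1104 (2.55%) were at least as long as this one.

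No peak of any target overlapped Igkc (chr6:70726435-70726966), the constant gene of every kappa chain, in any of 24 libraries. Neither the 5 Igkj segments, the J-C intron nor the 3′ part within the window held a peak, so none of these ranks could be tested. The empty stretch ran from 70313913 to 70789427 (476 kb, 31 immunoglobulin segments), and 1160 stretches (2.68%) of the genome were as long or longer. The nearest peak of any target to Igkc was 62462 bp away. A list holds only what passed the caller's threshold, so an uncalled place is not shown to lack the protein or the mark.

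The 3′ part, below Igha, was marked in every library, and Ikaros was called in it only with 4-OHT. H3K27ac at chr12:113218945-113226284 had folds of 11 and 9.32 at 0 h, 13.2 and 10.4 at 30 min, 13.7 and 9.23 at 1 h, and 13.1 and 12 at 2 h. Its percentile rank was 64.7 and 58.8, 73.1 and 68.9, 78.9 and 73.8, and 89.1 and 83.7 at the 4 times. The rank rose with time (rho = 0.98, exact p = 7.94e-04, 0.00714 after adjustment, with r = 0.95, exact p = 3.97e-04, 0.00357 after adjustment, and r = 0.91 without the 2 h libraries), whereas the log2 fold itself did not pass (rho = 0.34, exact p = 0.475 after adjustment). The median fold of the whole lists was 7.5 and 7.71 at 0 h and 4.36 and 5.19 at 2 h. Both 2 h folds of the region lay above both 0 h folds, and the 30 min and 1 h folds overlapped with them.

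Ikaros at chr12:113222353-113223014, inside that domain, was uncalled in both 0 h libraries and had folds of 3.72 in the first 30 min library, 4.55 and 4.13 at 1 h, and 4.68 and 3.4 at 2 h. The second 30 min library instead had a peak at chr12:113225039-113225300 (fold 4.69). The rank of the strongest Ikaros peak in the 3′ part was 0 in both 0 h libraries, 19.9 and 49.6 at 30 min, 41.2 and 34.6 at 1 h, and 64.4 and 9.38 at 2 h, which missed the threshold (rho = 0.59, exact p = 0.14, 0.181 after adjustment, with r = 0.50, exact p = 0.202, 0.26 after adjustment, and r = 0.80 without the 2 h libraries). Over the 6 libraries with a call rho was 0.00 (exact p = 1), and with lists of equal length the direction turned (rho = −0.17, exact p = 1). CHD4 was called in the 3′ part in all 8 libraries, including both 0 h ones with folds of 4.18 and 3.55, and its rank gave rho = −0.15 (exact p = 0.761, 0.761 after adjustment, with r = −0.13, exact p = 0.743, 0.743 after adjustment, and r = −0.34 without the 2 h libraries).

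Between Ighg2b and Ighg1, constant genes of the IgG classes, 1 region carried all 3 targets in all 24 libraries. H3K27ac there (chr12:113319268-113323619) had folds of 16.1 and 18.3 at 0 h, 21.2 and 14.5 at 30 min, 20.2 and 10 at 1 h, and 14.5 and 6.55 at 2 h. Ikaros (chr12:113320632-113321872) had folds of 3.27 and 6.93, 5.09 and 5.75, 5.25 and 8.83, and 5.37 and 4.74 at the 4 times, and CHD4 (chr12:113320574-113321680) ranged from 2.98 to 4.25. The Ikaros folds overlapped between times, while both 2 h folds lay below both 0 h folds for H3K27ac and for CHD4 (3.57 and 3.66 at 0 h, 3.31 and 3.29 at 2 h), and no trend was tested there. The median over all CHD4 regions called in all 8 libraries was also lower, with 3.65 and 3.58 at 0 h and 3.28 and 3.43 at 2 h. That of H3K27ac, given above, was lower too, so a lower fold at 2 h is not particular to this region. The region was 1 of only 2 Ikaros regions of the 98 called in all 8 libraries (2.04%, beside 9.66% of all Ikaros regions) and 1 of 5 CHD4 regions of the 173 (2.89%, beside 4.71%). H3K27ac regions were called in all 8 libraries in 102 of 455 cases (22.4%, beside 37.4% of all H3K27ac regions).

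No peak of any target overlapped Iglc1 (chr16:19061618-19062071), Iglc2 (chr16:19198396-19200351) or Iglc3 (chr16:19065230-19065681) in any library, nor any lambda V or J start within 1 kb in both libraries of a time. The locus held 1 domain of H3K27ac called in all 8 libraries (chr16:19177276-19182168), with its summit 15219 bp from Iglc4. Its folds were 15.5 and 10.1 at 0 h, 23.6 and 10.5 at 30 min, 27.4 and 12.5 at 1 h, and 27.6 and 14.7 at 2 h, and the first replicate was the higher at every time. Its rank was 77.1 and 62.8, 90.1 and 69.6, 95.6 and 85.4, and 99.1 and 89.5, with rho = 0.73 (exact p = 0.0548, 0.0986 after adjustment, with r = 0.74, exact p = 0.0373, 0.056 after adjustment, and r = 0.73 without the 2 h libraries). With the replicate block, which compares libraries of the same number, rho was 0.98 (exact p = 0.0156 after adjustment). A second H3K27ac region, chr16:19152829-19153752, was the gained one, with folds of 3.12 to 6.33 in all 6 libraries with 4-OHT and no call in the other 2.

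Ikaros in Igl was called at 2 h alone, in both libraries, at chr16:19179713-19180383 within the domain (folds 3.38 and 3.4). The second 2 h library held another, stronger Ikaros peak in the domain, at chr16:19179031-19179475 (fold 4.24, rank 35.6). CHD4 overlapped the same domain in the second 0 h, the second 1 h and both 2 h libraries, with folds of 3.16, 3.46, 3.13 and 4.18. Its rank in Igl gave rho = 0.68 (exact p = 0.0762, 0.114 after adjustment, with r = 0.78, exact p = 0.0238, 0.0536 after adjustment, and r = 0.32 without the 2 h libraries).

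Of the 455 H3K27ac regions in the 3 loci, 79 overlapped an Ikaros region (17.4%, beside 38.8% of all H3K27ac regions) and 139 a CHD4 region (30.5%, beside 28.8%). By locus the Ikaros share was 20.6% in Igh and 12% in Igk. Conversely 94 of 98 Ikaros regions overlapped H3K27ac (95.9%, beside 87.4%) and 72 overlapped CHD4 (73.5%, beside 54.6%). Of 173 CHD4 regions, 147 overlapped H3K27ac (85%, beside 85.1%) and 64 overlapped Ikaros (37%, beside 73.4%).

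Partners of the immunoglobulin chains, from a fixed list of 6, were read within 1 kb of their start sites. H3K27ac was called in all 8 libraries at all 6. Cd79a, the signalling partner of the mu chain, had Ikaros folds of 4.53 and 7.36 at 0 h and 6.97 to 14.2 in the 6 later libraries, CHD4 in all 8, and H3K27ac folds of 28.7 to 45.2. Cd79b, its partner chain, had Ikaros in 7 libraries and CHD4 in 8. The surrogate light chain genes Igll1 and Vpreb1, which shared 1 H3K27ac peak in each library, had folds of 57.9 and 29.5 at 0 h, 49.2 and 30.2 at 30 min, 27.5 and 20.9 at 1 h, and 19.1 and 19.6 at 2 h. Both 0 h values lay above all 1 h and 2 h values. Vpreb3, of the same family, had H3K27ac folds of 38.4 and 28.1 at 0 h and 15.5 and 15.3 at 2 h, and Vpreb2 had 8.2 and 12.9 at 0 h and 5.93 and 3.43 at 2 h. These were not tested, and the median over all H3K27ac regions called in all 8 libraries, given above, was also lower at 2 h.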

How the data were processed

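The 24 peak lists were used as deposited. Per the labels and the study's methods, paired-end reads were aligned to mm10 with Bowtie2 2.4.2, duplicates were marked with Picard 2.23.7, and peaks were called with MACS2 2.2.7.1 per library, narrow for Ikaros and H3K27ac and broad for CHD4; deepTools 3.5.0 is also named. The methods describe 0, 1 and 2 h; settings for 30 min, and which input was used, are not given in the sources used here. The authors' lists give, for each peak, a fold over input (a ratio), a score, and −log10 p-value and q-value; the last column of narrow lists is the summit offset. Longer lists hold more weak peaks, so counts were also read as percentages of the list.

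Groups followed the labels. Each peak was placed by its summit (narrow) or centre (broad) against GENCODE M21, whose GRCm38 coordinates are those of mm10. The values were the number of peaks in the 3 windows, and the percentile rank by fold, within its own list, of the strongest peak in a part, tested where at least 4 of 8 libraries had one. Trends over time used an exact two-sided permutation of Spearman's rho over all 40320 pairings, with Benjamini-Hochberg adjustment over 9 trends, and a threshold of 0.05. Regions were peaks of the 8 lists of a target merged over at least 1 bp; gained and lost regions carry no test, since 2 libraries against 2 cannot go below p = 0.333 in an exact two-sided permutation test. Pileup and coverage were recovered from fold and p of the narrow lists as whole fragments, which gave whole values for 98.1% to 100% of the peaks used (within 0.05 of a fragment). Scripts were tested on simulated data and used Python 3.11.15, numpy 2.4.6, scipy 1.17.1 and matplotlib 3.10.9.

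Named regions were, per part and target, the one called in most libraries (ties by mean rank), and all gained or lost regions where there were 10 or fewer, otherwise the 5 of highest mean rank over the target; variable segments were up to 5 per locus. The members and lists were chosen with earlier results of these data known. Trends for Igh or Igk alone, percentages and covered length were added after the data were seen, and each was adjusted in place of its target's trend among the 9, not over the added trends together. Sequences are from GRCm38.p6. Alternatives were −log10 q of 3 or more, fold of 3 or more, lists of equal length, other windows and overlaps, log2 fold, recovered pileup, uncalled libraries left out in place of rank 0, the replicate block and leaving out each library.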

Additional observations from a re-analysis of the deposited data

How the results depend on the processing

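Of 132 alternative fits of the trends, 110 kept direction and side of the threshold. With lists cut to the shortest, Ikaros peaks in the loci dropped from rho = 0.86 to 0.10, CHD4 peaks in the loci turned to rho = −0.25, the Ikaros rank in the Igh 3′ part turned to −0.17, and H3K27ac peaks passed (rho = 0.88); the cause was not tested. H3K27ac rank in the Igh 3′ part, the 1 trend that passed, no longer did on log2 fold (rho = 0.34) or recovered pileup (0.39), and H3K27ac rank in the Igh J-C intron turned to −0.20 on recovered pileup, while that in Igl passed (0.88).
With uncalled libraries left out, the Ikaros rank in the Igh 3′ part went from 0.59 to 0.00 over 6 libraries. Ikaros peaks passed at a fold of 3 or more (0.88). Among alternatives chosen after seeing the data, Ikaros passed by covered length (0.88), H3K27ac passed as percent of the list (0.93) and Igk alone (0.88, as number, percent of the list and share of the peaks in the loci), and CHD4 passed for Igk alone (0.84 as number, 0.93 as percent, 0.98 as percent with the replicate block).
With the replicate block, H3K27ac rank in Igl passed (0.98), and it changed no other planned call; the numbers share little else, as same-numbered libraries' deviations correlated over regions at −0.01 to 0.05 (Ikaros), 0 to 0.07 (CHD4) and −0.01 to 0.11 (H3K27ac).
Leaving out 1 library gave rho of 0.81 to 0.94 for Ikaros, 0.68 to 0.97 for CHD4 and 0.62 to 0.92 for H3K27ac peaks, which passed without the second 1 h, the second 0 h and the first 30 min library respectively. The CHD4 rank in the Igh 3′ part ran from −0.61 to 0.17, and was positive without the first 0 h (0.02) or second 2 h library (0.17).
Gained regions were 12 for Ikaros (5 at −log10 q of 3 or more, 2 with lists cut to the shortest, 12 to 32 leaving out 1 library), 13 for CHD4 (0, 3, 13 to 75) and 48 for H3K27ac (20 with lists cut to the shortest, 52 to 190). Without a 2 h library 1 fewer has to be called, and the highest gained counts (32, 75 and 190) were without the second. Lost regions were 2 for Ikaros (1 with lists cut to the shortest, 2 to 7), 4 for CHD4 (0 at −log10 q of 3 or more, 4 to 13) and 5 for H3K27ac (8 with lists cut to the shortest, 7 to 17).
Depth is that of the peak lists alone, without reads, so weak signal below the caller's threshold cannot be read; coverage, where recovered, was 1.98 to 4.34 fragments per base. The 9 ranks called in fewer than 4 libraries were not tested.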
